A study of Homo sapiens with 6 samples.

Results

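SR proteins and heterogeneous nuclear ribonucleoproteins (hnRNPs) are the main RNA-binding regulators of splicing, and their genes were followed here in liver cancer cells that had been targeted for the RNA helicase gene DDX17. Genes were taken by symbol, and 40 of the 58302 rows of the gene table carried a listed name, each name once. They comprised 12 SR protein genes (SRSF1 to SRSF12), 4 SR-like genes (TRA2A, TRA2B, SRRM1 and SRRM2), 22 hnRNP genes and the poly(C)-binding protein genes PCBP1 and PCBP2. The cells were MHCC97H, an established human hepatocellular carcinoma line. Control libraries came from a line with a non-target CRISPR control and DDX17_KO libraries from a line in which CRISPR/Cas9 had been directed at DDX17, with 3 total RNA libraries in each group. The labels give no further treatment, and they do not say whether either line was a single clone or whether libraries of a group came from separate cultures. The p-values below therefore reflect the scatter among these libraries, part of which may be technical.

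SR proteins carry 1 or more RNA recognition motifs and a domain rich in arginine and serine, the RS domain. Bound to exonic enhancers, they help the spliceosome to recognise splice sites, and kinases of the SRPK and CLK families control them by phosphorylating the RS domain. hnRNPs coat nascent transcripts and often oppose exon recognition, though several of them promote it from other positions. Many genes of both kinds limit their own output by splicing in exons that send the transcript to nonsense-mediated decay. DDX17 and its paralogue DDX5 unwind RNA and are known to act with hnRNP H and hnRNP F on shared splicing targets.

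The unit of the values was FPKM, fragments per kilobase of transcript scaled to sequencing depth, which allows levels of genes to be compared per length. Estimated depth was 12310000 to 14520000 fragments in the controls and 5340000 to 10600000 in DDX17_KO, lowest in DDX17_KO replicate 2. The libraries numbered 2 differed from the rest of their groups in the same genes, with deviations from the group mean that correlated at 0.546 across 15620 tested genes. Values without DDX17_KO replicate 2 are therefore given as well. Of 12 hepatocyte markers, 11 (ALB, APOA1 and HNF4A among them) stood at or near 0 in the 6 libraries, and CPS1 alone was high, at 130 to 476 FPKM. ALB stood at 0.205 to 0.365 FPKM in controls and at 0 in DDX17_KO. APOA1, APOB, TF and SERPINA1, all lower still, were also below the controls in each DDX17_KO library. The groups of APOH, TTR, FGB, FGA, AFP and HNF4A overlapped. Of 5 epithelial markers the keratins KRT8 and KRT18 were high, at 93.95 to 170 and 156 to 239 FPKM, while KRT19, EPCAM and CDH1 stood at 0 to 0.337 FPKM, with KRT19 and EPCAM below the controls in each DDX17_KO library. Summed red cell markers were 54.6 to 69.9 FPKM in controls and 0.0211 to 0.673 FPKM in DDX17_KO, where HBA1, HBA2 and HBB had fallen by the limma test. The other 5 red cell markers stood at or near 0 throughout, as did the leukocyte markers PTPRC, CD3E, CD14 and LYZ and the endothelial markers PECAM1, VWF and KDR. The leukocyte marker CD68 was at 1.26 to 1.64 FPKM in controls and 2.07 to 3.30 in DDX17_KO, and the endothelial marker CDH5 at 0.424 to 0.610 and 0.111 to 0.254. Of 6 fibroblast markers, COL1A1 stood at 12.4 to 15.7 FPKM in controls and 6.11 to 11.5 in DDX17_KO (-0.70 on the log2 scale), COL3A1 at 20.5 to 25.6 and 27.2 to 79.85 (0.89) and PDGFRB at 1.35 to 1.79 and 0.626 to 1.18 (-0.47). ACTA2 overlapped between the groups, and COL1A2 and DCN stood at or near 0. Of these COL1A1 passed limma without DDX17_KO replicate 2 (adjusted p 0.0449). The part of these differences in the results below was not tested.

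DDX17 RNA was lower in each DDX17_KO library than in any control. Its levels (ENSG00000100201, hg38 chromosome 22, 38483440 to 38507660, minus strand) were 45.7, 41.4 and 43.9 FPKM for the controls in order of replicate and 22.4, 7.64 and 19.1 FPKM for DDX17_KO. The groups did not overlap, and the lowest value was that of DDX17_KO replicate 2. On the log2 scale it differed by -1.48 ± 0.36 (SE, n = 3 per group), with an exact permutation p = 0.1 (two-sided), and 20 arrangements of 6 libraries allow no smaller one. The adjusted p by limma over all genes was 0.282, and it was 0.0334 without DDX17_KO replicate 2, at -1.04 on the log2 scale, in a range from 0.0238 to 0.790 over the other settings. In bulk RNA, fewer cells with the transcript and less of it per cell cannot be told apart.

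MHCC97H cells expressed nearly the whole set. SRSF12 was listed at 0 in the 6 libraries, and HNRNPR had a mean of 0.285 FPKM, below the minimum mean of 0.5 FPKM for testing, which left 38 genes. HNRNPR, a close relative of SYNCRIP, stood at 0.231, 0.101 and 0.228 FPKM across the controls and at 0.439, 0.327 and 0.383 across DDX17_KO. Its groups did not overlap, and its most abundant named pseudogene, at a mean of 0.655 FPKM, exceeded the gene itself. Tested SR and SR-like genes ran from a mean of 3.74 FPKM for SRSF8 to 69.3 FPKM for SRSF6, and hnRNP and PCBP genes from 1.02 FPKM for HNRNPL to 186 FPKM for PCBP1. Summed over the 16 SR and SR-like genes, the level came to 262, 233 and 258 FPKM across the controls and 229, 230 and 252 across DDX17_KO. Summed over the 24 hnRNP and PCBP genes it came to 718, 780 and 717 FPKM across the controls and 661, 742 and 642 across DDX17_KO. Both sums overlapped between the groups. They count gene rows alone, as do the ranks of level below. Rows named as HNRNPA1 pseudogenes came to 459, 370.5 and 475 FPKM across the controls and 431, 543.5 and 405 across DDX17_KO. HNRNPL and other genes with abundant pseudogenes carry the limit given below.

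**Figure D1:**
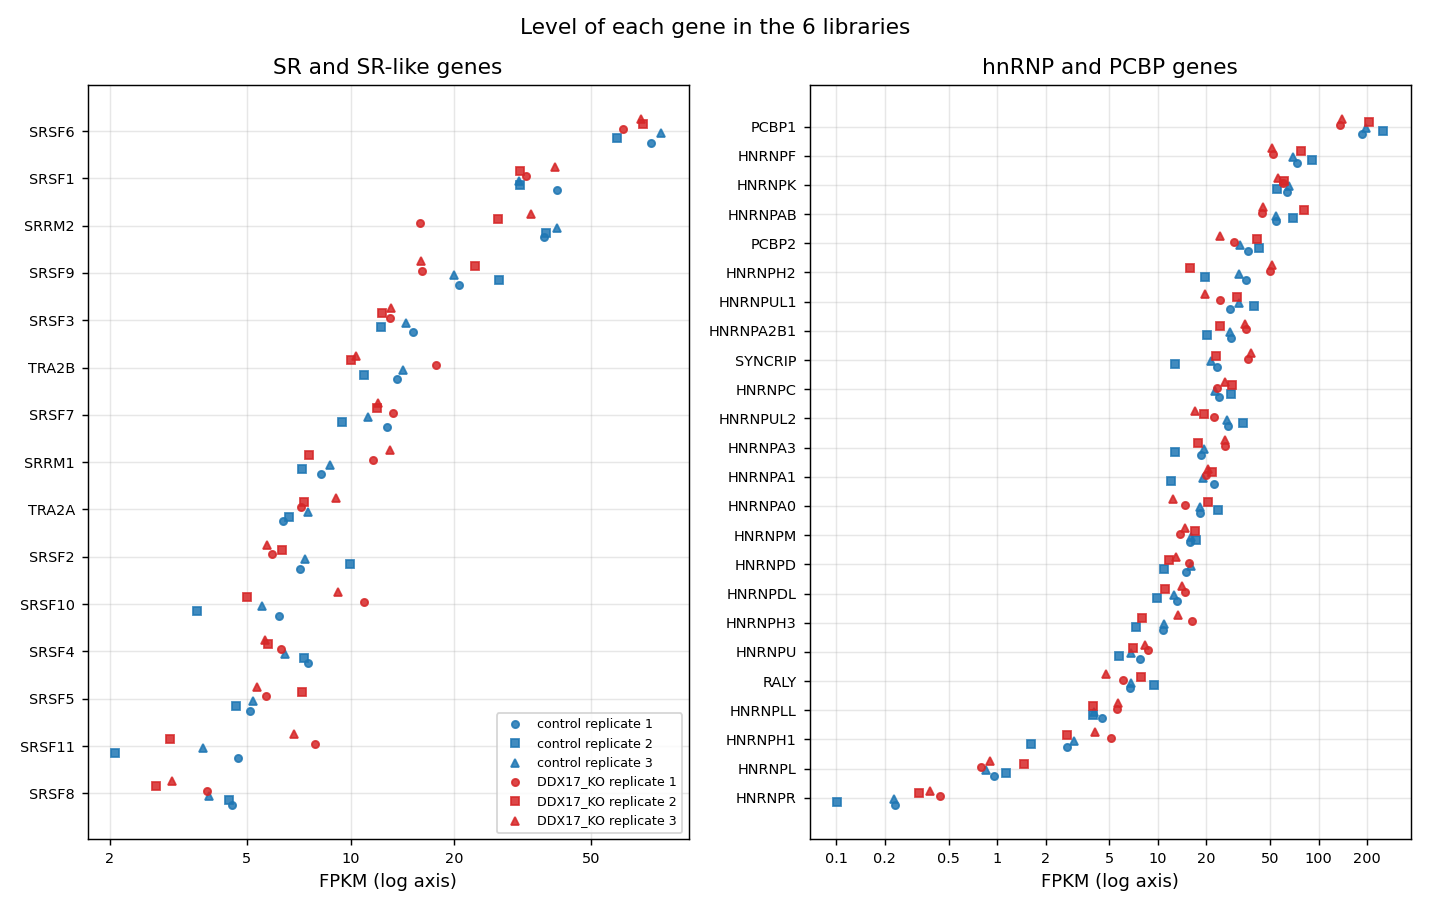
Level of each gene in each library, in FPKM on a log axis, with SR and SR-like genes on the left and hnRNP and PCBP genes on the right; blue marks are controls, red marks DDX17_KO, and the marker shape gives the replicate number. SRSF12, at 0, is not drawn; the marks of the groups intermingle in most rows, and the squares of replicate 2 often lie together at one end, as for HNRNPH2 at 19.5 and 15.9 FPKM.

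No gene of the set passed the test over all genes. By limma on log2(FPKM + 1), with p-values adjusted by the Benjamini-Hochberg method over 15620 genes, 0 of 38 were called higher and 0 lower in DDX17_KO, beside 0% and 0.0384% of all genes tested. At an unadjusted p under 0.05, SYNCRIP was higher and HNRNPUL2 lower, 1 gene in each direction, against 6.31% and 7.19% of all genes. The groups did not overlap in 1 tested gene that was higher (SRSF5) and in 5 that were lower (SRSF2, SRSF4, SRSF8, SRRM2 and HNRNPUL2), against 8.09% and 12.6% of all genes. The median log2 fold change was -0.02 with 19 of 38 genes above 0, and over all genes it was -0.03 with 47.5% above 0. Fold changes on this scale understate the change of genes with low values.

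Without DDX17_KO replicate 2, still 0 of the 38 were called in either direction, while 1.95% of all genes were called higher and 1.72% lower. The groups then did not overlap in 13 genes that were higher and 14 that were lower, against 28.2% and 32.6% of all genes. DDX17_KO replicate 2 lay on the same side of the control mean as both other DDX17_KO libraries in 19 of 38 genes, 50%, and in 52.5% of all genes. With both libraries numbered 2 left out, a setting chosen after the data were seen, limma called SYNCRIP (adjusted p 0.0378) and HNRNPH2 (adjusted p 0.0455) higher and 0 lower, against 5.51% and 3.3% of all genes. Over the other settings the adjusted p of SYNCRIP reached 0.790 and that of HNRNPH2 0.996.

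**Figure D2:**
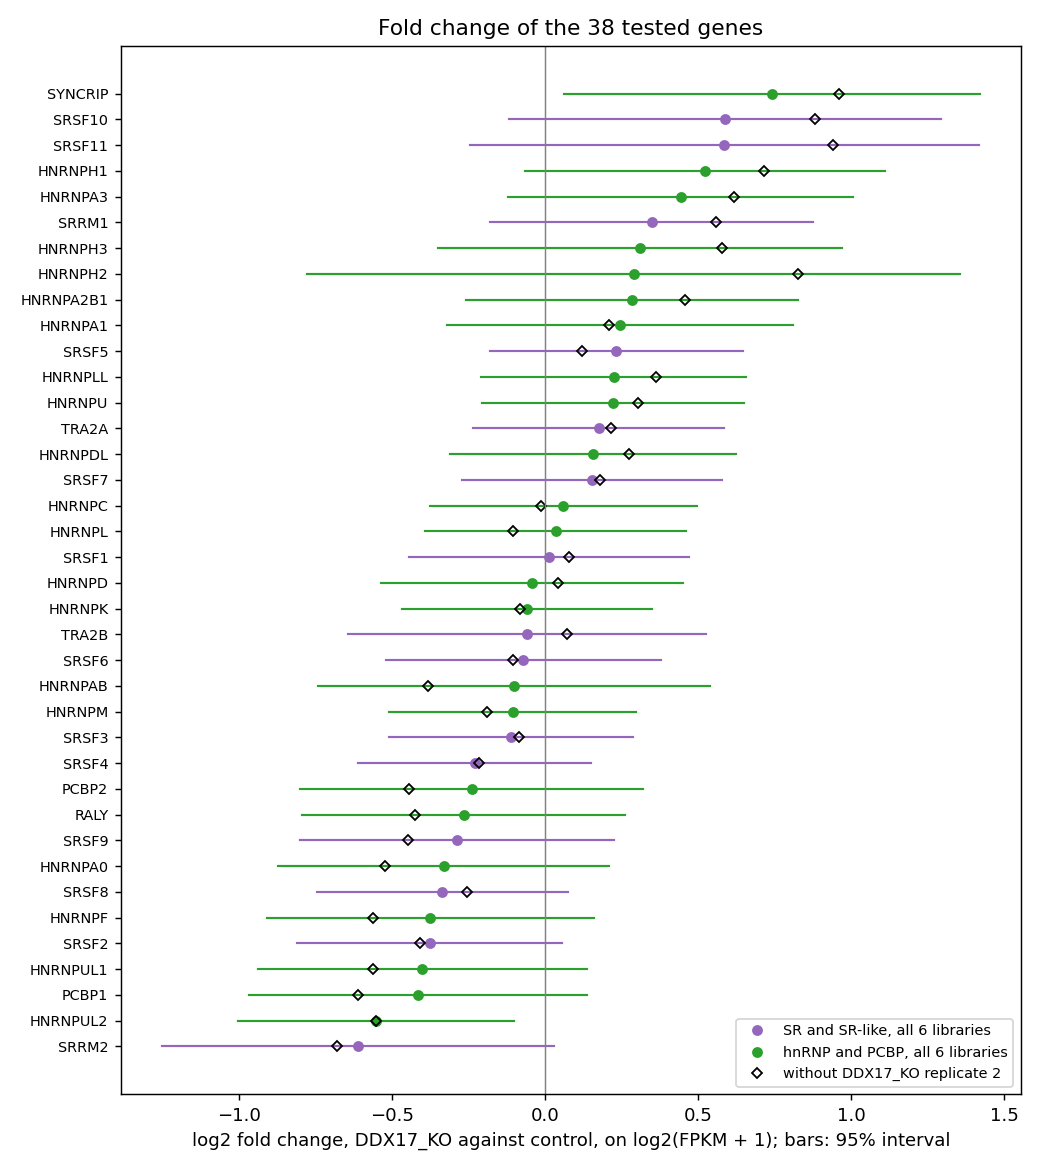
Log2 fold change of DDX17_KO against control for the 38 tested genes, on log2(FPKM + 1), ordered by size; filled circles and bars are the estimate and 95% confidence interval over 6 libraries (n = 3 per group), and open diamonds the estimate without DDX17_KO replicate 2. The intervals of SYNCRIP, from 0.06 to 1.42, and HNRNPUL2, from -1.01 to -0.10, exclude 0, and the diamonds of HNRNPH2 and SRSF11 lie far to the right of their circles.

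Among the SR proteins, 5 of 11 tested genes had a fold change above 0 and 6 below. SRSF2 (ENSG00000161547, chromosome 17, 76734115 to 76737374, minus strand), an enhancer-binding regulator of exon inclusion that stays in the nucleus, stood at 7.14, 9.95 and 7.37 FPKM across the controls and at 5.92, 6.31 and 5.73 across DDX17_KO. Each DDX17_KO library lay below the lowest control, and control replicate 2 was the highest. The difference was -0.38 on the log2 scale (95% confidence interval -0.81 to 0.05, limma adjusted p 0.389), and without control replicate 2 it was -0.24.

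SRSF8 (ENSG00000263465, chromosome 11, 95067197 to 95071224, plus strand), a retrocopy of SRSF2 in primates, stood at 4.52, 4.42 and 3.88 FPKM across the controls and at 3.84, 2.73 and 3.03 across DDX17_KO. The groups met closely, with DDX17_KO replicate 1 just under control replicate 3. On the log2 scale SRSF8 differed by -0.34 (95% confidence interval -0.75 to 0.07, limma adjusted p 0.400). The coding sequences of SRSF2 and SRSF8 were 84.71% identical, with a longest identical run of 34 bases. SRSF4 (ENSG00000116350, chromosome 1, 29147743 to 29181987, minus strand), one of the larger SR proteins, stood at 7.53, 7.30 and 6.43 FPKM across the controls and at 6.28, 5.75 and 5.64 across DDX17_KO. Here too the groups were separate by a small margin, between control replicate 3 and DDX17_KO replicate 1. Its log2 fold change was -0.23 (95% confidence interval -0.61 to 0.15, limma adjusted p 0.493).

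SRSF5 (ENSG00000100650, chromosome 14, 69726900 to 69772005, plus strand) was the tested gene with separate groups in the higher direction, at 5.09, 4.66 and 5.22 FPKM across the controls and at 5.66, 7.22 and 5.34 across DDX17_KO. The highest library was DDX17_KO replicate 2, and the other DDX17_KO libraries lay close to the controls. The gene had a log2 fold change of 0.23 (95% confidence interval -0.18 to 0.65, limma adjusted p 0.516), and it was 0.12 without DDX17_KO replicate 2.

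SRSF10 and SRSF11 had the largest positive fold changes among SR genes and a wide spread. SRSF10 (ENSG00000188529, chromosome 1, 23964804 to 23980927, minus strand), which acts as a splicing repressor when dephosphorylated, stood at 6.21, 3.58 and 5.54 FPKM across the controls and at 10.9, 5.01 and 9.21 across DDX17_KO. SRSF11 (ENSG00000116754, chromosome 1, 70205682 to 70253052, plus strand) stood at 4.71, 2.07 and 3.72 FPKM across the controls and at 7.90, 2.99 and 6.86 across DDX17_KO. In both genes replicate 2 was the lowest library of each group, and DDX17_KO replicate 2 fell within the control range. SRSF10 had a log2 fold change of 0.59 (limma adjusted p 0.397), which was 0.88 without DDX17_KO replicate 2 and 0.39 without control replicate 2 or without DDX17_KO replicate 1. SRSF11 also had 0.59 (limma adjusted p 0.441), and 0.94, 0.33 and 0.36 in the same 3 settings.

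SRSF6 (ENSG00000124193, chromosome 20, 43457928 to 43464247, plus strand) was the most abundant SR gene, at 74.6, 59.3 and 79.7 FPKM across the controls and at 61.6, 70.6 and 69.7 across DDX17_KO. The DDX17_KO values lay inside the control range. The estimate for SRSF6 was -0.07 (95% confidence interval -0.52 to 0.38). SRSF1, the founding SR protein and second in level, stood at 39.6, 31.1 and 30.8 FPKM across the controls and at 32.2, 31.0 and 39.1 across DDX17_KO, with a log2 fold change of 0.01 (95% confidence interval -0.44 to 0.47). SRSF3, SRSF7 and SRSF9 had fold changes of -0.11, 0.15 and -0.29 on the log2 scale, and their groups overlapped. SRSF9 had -0.45 without DDX17_KO replicate 2, with separate groups, and -0.16 without control replicate 2. Without control replicate 2 SRSF3 had -0.20 and SRSF7 0.05, and without control replicate 1 SRSF3 had -0.05.

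SRRM2, a large scaffold protein of nuclear speckles, had the most negative fold change of the set. The gene (ENSG00000167978, chromosome 16, 2752329 to 2772538, plus strand) stood at 36.3, 36.9 and 39.7 FPKM across the controls and at 15.9, 26.8 and 33.5 across DDX17_KO. The controls lay close together and above each DDX17_KO library, and DDX17_KO replicate 1 was far below replicate 3. SRRM2 differed by -0.61 on the log2 scale (95% confidence interval -1.25 to 0.03, limma adjusted p 0.372), and without DDX17_KO replicate 1 it was -0.32. SRRM1, the other SRRM gene of the set, stood at 8.22, 7.23 and 8.72 FPKM across the controls and at 11.6, 7.58 and 13.1 across DDX17_KO. Its groups overlapped through DDX17_KO replicate 2, and the log2 fold change of 0.35 became 0.56 without that library (limma adjusted p 0.463 and 0.0717) and 0.20 without DDX17_KO replicate 3. TRA2A and TRA2B, the human homologues of fly transformer-2, had log2 fold changes of 0.18 and -0.06. Without DDX17_KO replicate 2 they were 0.22 and 0.07, and without replicate 1 of that group TRA2B had -0.31. TRA2A had 0.08 without DDX17_KO replicate 3.

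The hnRNP genes with fold changes above 0 included 3 of the 4 of the hnRNP F and H family, which binds G-rich elements and with which DDX17 is known to act. Above 0 lay 12 of the 23 tested hnRNP and PCBP genes and 47.5% of all genes. The 3 were HNRNPH1, HNRNPH2 and HNRNPH3, which are among the 13 genes lowest in coding GC content given below. Of those 13 genes, 12 lay above 0. After the coding GC correction given below the 3 had 0.44, 0.20 and 0.18. HNRNPH1 (ENSG00000169045, chromosome 5, 179614178 to 179634784, minus strand) stood at 2.74, 1.62 and 2.99 FPKM across the controls and at 5.11, 2.73 and 4.07 across DDX17_KO. DDX17_KO replicate 2 lay among the controls and the other DDX17_KO libraries above them. HNRNPH1 differed by 0.52 on the log2 scale (limma adjusted p 0.383). The value was 0.71 when DDX17_KO replicate 2 was left out, 0.36 without DDX17_KO replicate 1 and 0.33 without control replicate 2. The coding sequence of HNRNPH1 was 87.19% identical to that of HNRNPH2, with a longest identical run of 50 bases.

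HNRNPH2 (ENSG00000126945, chromosome X, 101408295 to 101414133, plus strand) had the widest range within a group of the whole set. It stood at 35.3, 19.5 and 31.9 FPKM across the controls and at 49.7, 15.9 and 51.2 across DDX17_KO, a range of 1.63 on the log2 scale within DDX17_KO. With 1 annotated transcript, its values correspond to 965, 603 and 1029 fragments in controls and 1171, 189 and 932 in DDX17_KO. DDX17_KO replicate 2 was the lowest of the 6 libraries, and both other DDX17_KO libraries were above each control. Over 6 libraries HNRNPH2 differed by 0.29 on the log2 scale (95% confidence interval -0.78 to 1.36, limma adjusted p 0.755). The value was 0.82 when DDX17_KO replicate 2 was left out, 0.04 without control replicate 2, and 0.03 or 0.01 when DDX17_KO replicate 1 or 3 was.

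HNRNPF (ENSG00000169813, chromosome 10, 43385617 to 43409166, minus strand), the second most abundant hnRNP or PCBP gene by gene rows alone, lay on the other side of 0 from its relatives. It stood at 73.5, 90.5 and 69.1 FPKM across the controls and at 52.3, 77.2 and 51.5 across DDX17_KO. Replicate 2 was the highest library in each group, and its DDX17_KO value fell within the control range. HNRNPF differed by -0.37 on the log2 scale (95% confidence interval -0.91 to 0.16, limma adjusted p 0.441), and -0.56 without DDX17_KO replicate 2. HNRNPH3 had a log2 fold change of 0.31, which was 0.58 without DDX17_KO replicate 2, 0.11 without DDX17_KO replicate 1 and 0.14 without control replicate 2.

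SYNCRIP, also called hnRNP Q, was singled out after its values were seen, for the largest fold change of the set. The gene (ENSG00000135316, chromosome 6, 85607785 to 85643792, minus strand), whose product works in splicing and in messenger RNA transport and stability, stood at 23.3, 12.8 and 21.4 FPKM across the controls and at 36.4, 23.1 and 37.9 across DDX17_KO. DDX17_KO replicate 2 fell just below control replicate 1, so the groups overlapped. SYNCRIP differed by 0.74 ± 0.29 on the log2 scale (SE, n = 3 per group, limma adjusted p 0.369). It was 0.96 without DDX17_KO replicate 2 (limma adjusted p 0.0698) and 0.49 without control replicate 2.

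HNRNPUL2 (ENSG00000214753, chromosome 11, 62712630 to 62727349, minus strand), a relative of the scaffold attachment protein hnRNP U, was the tested hnRNP gene with separate groups. It stood at 27.4, 33.8 and 26.8 FPKM across the controls and at 22.4, 19.5 and 17.1 across DDX17_KO. Each DDX17_KO library lay below the lowest control. HNRNPUL2 differed by -0.55 on the log2 scale (95% confidence interval -1.01 to -0.10, limma adjusted p 0.358), and from -0.65 to -0.45 when single libraries were left out. Its paralogue HNRNPUL1 had a log2 fold change of -0.40 and HNRNPU one of 0.22, and the groups of both overlapped. The values were -0.56 and 0.30, with separate groups, without DDX17_KO replicate 2. HNRNPUL1 had -0.25 without DDX17_KO replicate 3, and HNRNPU 0.12 without control replicate 2.

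PCBP1 (ENSG00000169564, chromosome 2, 70087454 to 70089203, plus strand), an intronless gene for a binder of C-rich RNA, had the highest level of the set by gene rows alone. The row of the HNRNPA1 pseudogene HNRNPA1P7, described below, was higher, at a mean of 299 FPKM. PCBP1 stood at 186, 252 and 198.5 FPKM across the controls and at 135, 207 and 140 across DDX17_KO. Replicate 2 was again the highest of each group, and the other DDX17_KO libraries lay below the controls. PCBP1 differed by -0.42 on the log2 scale (95% confidence interval -0.97 to 0.14, limma adjusted p 0.424), -0.61 without DDX17_KO replicate 2 and -0.29 without control replicate 2. PCBP2 had a log2 fold change of -0.24, which was -0.44 without DDX17_KO replicate 2. It shrank to -0.07 when DDX17_KO replicate 3 was left out and to -0.14 when control replicate 2 was.

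HNRNPK and HNRNPAB, next in level among hnRNP and PCBP genes, overlapped between the groups. HNRNPK, the archetype of KH-domain hnRNPs, stood at 64.0, 54.8 and 65.7 FPKM across the controls and at 59.9, 60.7 and 55.9 across DDX17_KO, with a log2 fold change of -0.06 (95% confidence interval -0.47 to 0.35). HNRNPAB stood at 54.0, 69.3 and 54.2 FPKM across the controls and at 44.6, 81.4 and 45.1 across DDX17_KO. Its DDX17_KO replicate 2 was the highest of the 6 libraries and the others were the lowest, which gave a log2 fold change of -0.10 and one of -0.38 without that library. The exon repressors HNRNPA1, HNRNPA2B1 and HNRNPA3 had log2 fold changes of 0.24, 0.28 and 0.44, and HNRNPA0 one of -0.33. Without control replicate 2 these were 0.0021, 0.13, 0.26 and -0.21, and without DDX17_KO replicate 2 they were 0.21, 0.46, 0.62 and -0.52, with separate groups in the last 3. HNRNPA1 had 0.42 without control replicate 1, and HNRNPA0 -0.18 without DDX17_KO replicate 3. For HNRNPC, HNRNPD, HNRNPDL, HNRNPL, HNRNPLL, HNRNPM and RALY the values lay between -0.27 and 0.22, and the groups of these 7 genes overlapped. With DDX17_KO replicate 2 left out they ran from -0.42 to 0.36, and the groups were separate in HNRNPDL (0.27) and HNRNPLL (0.36), which were higher, and in HNRNPM (-0.19) and RALY (-0.42), which were lower. HNRNPC had -0.02, HNRNPD 0.04 and HNRNPL -0.10 in that setting. Without control replicate 2 HNRNPDL had 0.03 and RALY -0.12, and HNRNPM had -0.04 without DDX17_KO replicate 1.

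The groups were also compared within replicate number, a pairing that no label gives and in which only number 2 stood out by its correlation. DDX17_KO was above the control of the same number in 3 of 3 numbers for 14 of 38 genes and below it for 13, against 26.2% and 27.5% of all genes tested. The differences of SYNCRIP were 0.62, 0.80 and 0.80 on the log2 scale for numbers 1, 2 and 3. Those of HNRNPA3 were 0.46, 0.45 and 0.42, and those of PCBP1 were -0.46, -0.29 and -0.50. HNRNPH2 was mixed, at 0.48, -0.28 and 0.67. Blocked by replicate number, limma still called 0 of 38 genes after adjustment. At an unadjusted p under 0.05 the blocked fit gave 5 genes higher (SYNCRIP, SRSF10, SRSF11, HNRNPH1 and HNRNPA3) and 8 lower (SRSF2, SRSF8, SRRM2, HNRNPA0, HNRNPF, HNRNPUL1, HNRNPUL2 and PCBP1), against 15.1% and 13.4% of all genes.

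The fold changes were ordered much as the base composition of the genes was. Across the 38 genes, which share libraries and so are not independent points, the fold change and the GC content of the longest coding sequence correlated at a Pearson r of -0.77 and a Spearman rho of -0.84. Over 10547 tested protein-coding genes rho was -0.65. With the GC content of the longest whole transcript, untranslated ends included, rho was -0.63 across the 38. Of the 13 genes lowest in coding GC, 43.4% to 48.1%, 12 had a fold change above 0, with a median of 0.29, and HNRNPK was the exception at -0.06. Of the 13 highest, 54.9% to 66.8%, 11 lay below 0, with a median of -0.33, and the exceptions were SRSF1 at 0.01 and HNRNPL at 0.03. The HNRNPL row had a mean of only 1.02 FPKM, and its pseudogene is given below. The 12 genes between these classes had a median of -0.05. Without DDX17_KO replicate 2 the medians were 0.58, 0.06 and -0.42 from the lowest to the highest class.

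The extremes of this range are shown by the middle 120 coding bases of 4 genes, printed 5′ to 3′ from the GENCODE release 29 transcripts with each G and C in capitals. Their coding GC contents are 43.4% for SYNCRIP, 44.0% for HNRNPLL, 65.7% for SRSF8 and 66.8% for SRSF2.
SYNCRIP: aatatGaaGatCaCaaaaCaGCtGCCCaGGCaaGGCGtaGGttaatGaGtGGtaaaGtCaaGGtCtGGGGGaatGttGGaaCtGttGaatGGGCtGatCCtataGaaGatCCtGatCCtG
HNRNPLL: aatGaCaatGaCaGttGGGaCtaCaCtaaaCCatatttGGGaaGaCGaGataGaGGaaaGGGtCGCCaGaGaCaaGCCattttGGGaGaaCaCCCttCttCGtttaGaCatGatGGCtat
SRSF8: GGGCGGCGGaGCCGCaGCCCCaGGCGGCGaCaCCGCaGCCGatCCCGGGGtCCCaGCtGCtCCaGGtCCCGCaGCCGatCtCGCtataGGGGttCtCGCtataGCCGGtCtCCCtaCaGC
SRSF2: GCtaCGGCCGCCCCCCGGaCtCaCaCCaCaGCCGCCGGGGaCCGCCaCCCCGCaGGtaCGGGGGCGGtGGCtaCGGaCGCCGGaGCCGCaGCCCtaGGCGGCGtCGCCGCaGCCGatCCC
The windows themselves hold 45.8%, 44.2%, 71.7% and 79.2% G and C in that order. Those of SRSF8 and SRSF2 enter the RS domain, whose arginine and serine codons repeat in them. SYNCRIP and HNRNPLL had fold changes of 0.74 and 0.22, and SRSF8 and SRSF2 of -0.34 and -0.38.

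Libraries within a group differed along the same axis. A library's deviation from its group mean was correlated with transcript GC content. Over the 38 genes rho was, in order of replicate, -0.66, 0.65 and -0.45 among the controls and -0.49, 0.63 and -0.54 among DDX17_KO. Over 15564 genes it was -0.54, 0.59 and -0.32 among the controls and -0.42, 0.54 and -0.45 among DDX17_KO. The libraries numbered 2 thus had the opposite sign to the rest in both groups. After the values of protein-coding genes were corrected for coding GC content and coding length, a setting chosen after the data were seen, rho across the 38 was -0.41. Over 10547 protein-coding genes it was 0.02. Of the 38 genes 26 lay above 0, against 49.1% of the protein-coding genes tested. The class medians were then 0.18, 0.01 and 0.06. SYNCRIP had 0.47 and SRSF11 0.49 after that correction, and SRRM2 had -0.71 and HNRNPUL2 -0.38. SRSF2, SRSF8 and HNRNPA0 had 0.06, 0.08 and 0.07, on the other side of 0. The planned correction for transcript GC content and length differed for these genes. It left SRSF2, SRSF8 and HNRNPA0 below 0, at -0.39, -0.44 and -0.67. By limma 0 of the 38 genes were called after either correction.

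**Figure D3:**
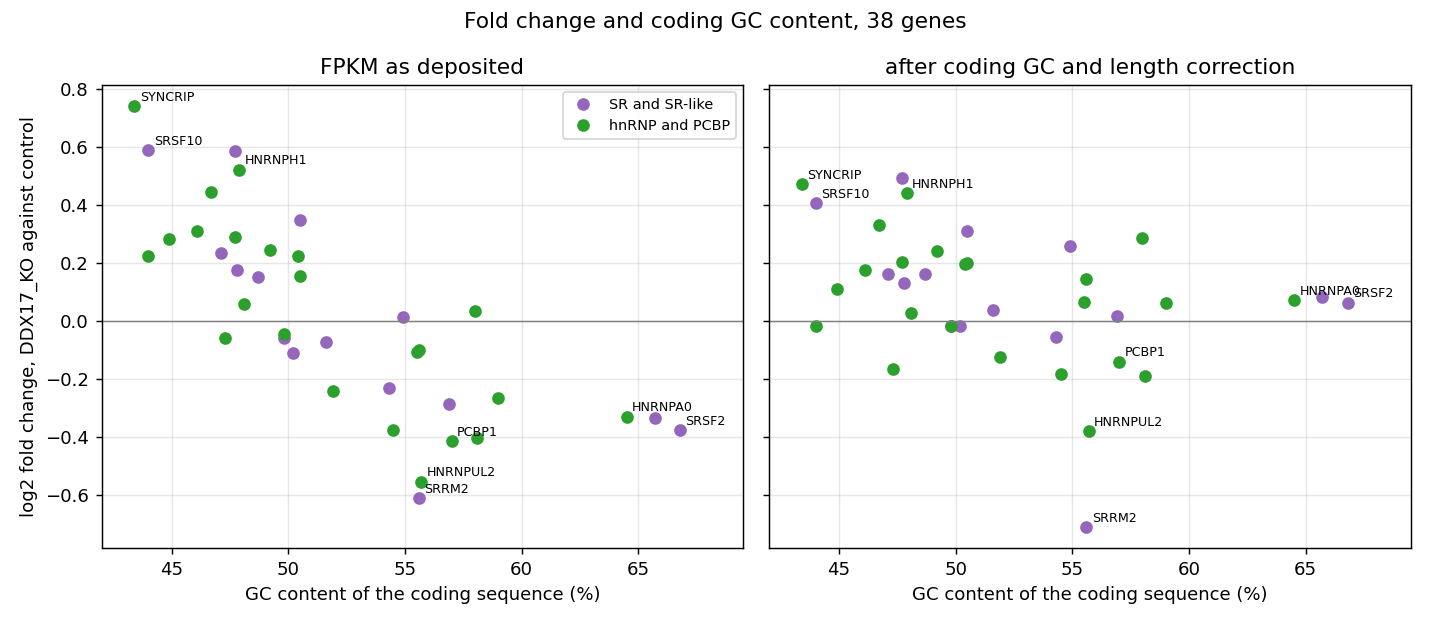
Log2 fold change of DDX17_KO against control (vertical axis, log2 units) against the GC content of the longest coding sequence in percent, 1 point for each of 38 genes; the left panel uses the FPKM as deposited and the right panel values corrected for coding GC content and length. The points fall from SYNCRIP at 43.4% and 0.74 to SRSF2 at 66.8% and -0.38 on the left, and on the right SRRM2, at -0.71, lies apart from the rest.

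Several hnRNP genes have pseudogenes, most of them processed copies of the spliced RNA that returned to the genome, and some of these rows exceeded the gene itself. HNRNPA1 has 75 named pseudogenes in the table, of which 24 were above 0, and HNRNPA1P7 (chromosome 18, 32412214 to 32413176, minus strand) stood at 316, 261 and 332 FPKM across the controls and at 278, 348 and 262 across DDX17_KO. HNRNPA1 itself (chromosome 12, 54280193 to 54287088, plus strand) stood at 22.4, 12.1 and 19.1 FPKM across the controls and at 19.9, 21.7 and 20.4 across DDX17_KO. The mean of the pseudogene row was 15.5 times that of the gene, and its values equal 3748, 3485 and 4639 fragments in controls and 2833, 1787 and 2067 in DDX17_KO. The copy matched the coding sequence of HNRNPA1 at 99.06% of bases over 86.0% of its length.

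HNRNPL, a binder of CA repeats, was listed at 0.961, 1.14 and 0.858 FPKM across the controls and at 0.795, 1.46 and 0.897 across DDX17_KO. Its pseudogene HNRNPLP2, which GENCODE annotates as unprocessed (chromosome 15, 34489002 to 34490571, minus strand), 97.38% identical to the coding sequence, stood at 41.2, 57.3 and 49.8 FPKM across the controls and at 31.8, 47.3 and 28.1 across DDX17_KO. The pseudogene mean was 41.8 times that of the gene. HNRNPA3P6 had a mean 6.03 times that of HNRNPA3 at 99.6% identity, and HNRNPCP2 one 2.68 times that of HNRNPC at 98.86%. HNRNPUP1, which covers 13.4% of the HNRNPU coding sequence, had a mean 1.62 times that of HNRNPU. HNRNPKP4 stood lower, at 0.717 times the mean of HNRNPK, with 96.61% identity.

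The likeness is shown for 2 pairs in windows of 100 aligned bases of the coding strand, 5′ to 3′ from GENCODE release 29, in lower case with the positions at which the copies differ in capitals.
HNRNPL gene: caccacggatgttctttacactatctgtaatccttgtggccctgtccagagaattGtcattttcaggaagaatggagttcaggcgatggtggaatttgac
HNRNPLP2: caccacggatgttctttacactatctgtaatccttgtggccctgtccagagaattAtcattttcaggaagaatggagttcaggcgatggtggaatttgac
HNRNPK gene: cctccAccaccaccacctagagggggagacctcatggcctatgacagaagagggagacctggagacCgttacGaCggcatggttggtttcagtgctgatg
HNRNPKP4: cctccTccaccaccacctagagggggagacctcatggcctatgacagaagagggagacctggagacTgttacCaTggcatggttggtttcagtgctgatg
The windows start at coding bases 618 and 928, counted from 1 at the first base of the start codon. They hold 1 mismatch for HNRNPL and 4 for HNRNPK. Within these windows, a fragment that covers none of those positions cannot be placed at the gene rather than the copy by its bases. The levels and fold changes of HNRNPA1, HNRNPA3, HNRNPC, HNRNPK, HNRNPL and HNRNPU are uncertain to that extent. The groups overlapped in each of the 6 pseudogene rows named. Differences on the log2 scale were -0.04 for HNRNPA1P7, 0.28 for HNRNPA3P6, 0.09 for HNRNPCP2 and -0.14 for HNRNPKP4. They were -0.48 for HNRNPLP2, beside 0.03 for HNRNPL, and -0.06 for HNRNPUP1.

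**Figure D4:**
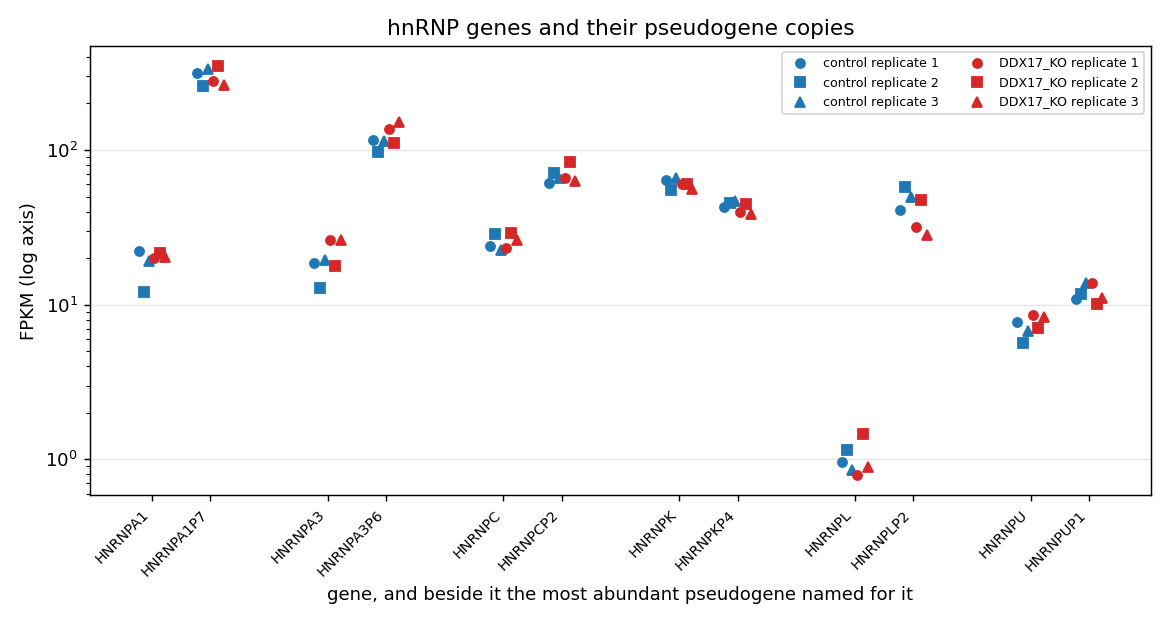
Level in each library, in FPKM on a log axis, of 6 hnRNP genes and, beside each, its most abundant named pseudogene; blue marks are controls, red marks DDX17_KO, and the marker shape gives the replicate number. HNRNPA1P7 lies between 261 and 348 FPKM above HNRNPA1 between 12.1 and 22.4 FPKM, and HNRNPLP2 lies above HNRNPL in each library.

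Overlapping annotation adds a further limit, since strand-specific counting is not stated in the sources used here. SRSF2 shares 36.7% of its exonic bases with MFSD11 on the opposite strand, and SRSF9 shares 46.2% with GATC. MFSD11 stood at 0.757 to 1.25 FPKM, and GATC at 11.7 to 16.7 FPKM, beside 16.04 to 26.9 for SRSF9. PCBP2 shares 13.8% with AC023509.1 on its own strand, which stood at 27.9 to 42.7 FPKM, beside 24.2 to 42.6 for PCBP2. HNRNPU shares 15.6% with COX20, at 3.39 to 8.63 FPKM. HNRNPUL2 shares 44.1% with the read-through gene HNRNPUL2-BSCL2, which stood at 5.37, 1.71 and 2.66 FPKM across the controls and at 1.93, 5.84 and 2.34 across DDX17_KO. That row was highest in DDX17_KO replicate 2, and its groups overlapped. PCBP1 shares 52.2% with PCBP1-AS1, which stood at 0.180 to 0.337 FPKM, and SRSF1 shares 56.6% with AC015813.2, at 0.193 to 1.84 FPKM. HNRNPH2 shares 16.3% with the read-through gene RPL36A-HNRNPH2, at 1.12 to 5.29 FPKM.

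Genes that act on or beside these proteins were taken from 3 lists. The lists were chosen with earlier results of these data known, so their shares beside all genes are no test of the lists. Of 13 SR protein kinase, phosphatase and importin genes, 11 were tested, 0 were called in either direction, and 9 lay above 0 with a median log2 fold change of 0.23, which was 0.43 without DDX17_KO replicate 2. CLK1, a kinase of the RS domain, was higher in each DDX17_KO library, at 1.65, 0.945 and 1.28 FPKM across the controls and at 2.28, 1.81 and 2.12 across DDX17_KO. CLK1 differed by 0.43 on the log2 scale (limma adjusted p 0.369), and by 0.32 without control replicate 2. With coding GC correction it had 0.14, and with GC content and transcript length correction 0.44. SRPK1 and SRPK2, cytoplasmic kinases that license SR proteins for nuclear import, had log2 fold changes of 0.23 and 0.24, and the importin gene TNPO3 one of 0.0012. SRPK1 had 0.49, SRPK2 0.45 and TNPO3 0.12 without DDX17_KO replicate 2. Without control replicate 2 they had -0.09, 0.10 and -0.18, and without DDX17_KO replicate 1 or 3 SRPK1 had 0.09. With coding GC correction SRPK1 had -0.04, SRPK2 0.10 and TNPO3 -0.19. These were 0.06, 0.08 and 0.01 with GC content and transcript length correction.

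Of 25 other genes for splicing proteins with RS domains, 0 were called in either direction, and 16 lay above 0 with a median of 0.32. THRAP3, a speckle-associated splicing and transcription factor, was lower in each DDX17_KO library, at 76.96, 78.0 and 75.5 FPKM across the controls and at 60.4, 65.7 and 61.0 across DDX17_KO. THRAP3 differed by -0.30 on the log2 scale (limma adjusted p 0.417), and ACIN1, a subunit of a complex at exon junctions, also had separate groups at -0.17. Without DDX17_KO replicate 2, the median was 0.62 and limma called 3 genes higher and 0 lower, 3 of 25 against 1.95% of all genes. They were PNN, the pinin gene, LUC7L3, which encodes a factor of the U1 particle, and SCAF11, with adjusted p of 0.0488, 0.0498 and 0.0385, each of which reached 0.790 in another setting. LUC7L3 stood at 5.15, 2.05 and 4.11 FPKM across the controls and at 13.7, 4.31 and 11.6 across DDX17_KO, and DDX17_KO replicate 2 lay within the control range. Without both libraries numbered 2, the setting chosen after the data were seen, limma called 12 of the 25 higher, against 5.51% of all genes. It called U2AF2 lower (-0.51, adjusted p 0.0464), against 3.3%. The 12 were SREK1, SON, RBM25, PNN, LUC7L2, LUC7L3, SCAF8, SCAF11, U2SURP, ZRANB2, PPIG and BCLAF1, with log2 fold changes of 0.50 to 1.28. Their coding GC content ran from 39.0% (PPIG) to 48.3% (SON), and that of U2AF2 was 60.7%. With coding GC correction, over 6 libraries, the 12 ran from -0.05 (SON) to 0.86 (LUC7L3), and U2AF2 had -0.0047. The part of base composition in these calls was not tested.

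Of 26 other hnRNP-like genes, 22 were tested, 0 were called in either direction, and 6 lay above 0 with a median of -0.19. PTBP2, the paralogue of the exon repressor PTBP1 that is best known from neurons, was higher in each DDX17_KO library, at 2.21, 1.25 and 2.01 FPKM across the controls and at 2.503, 2.25 and 3.75 across DDX17_KO. PTBP2 differed by 0.44 on the log2 scale (limma adjusted p 0.394). The value was 0.27 without DDX17_KO replicate 3 and 0.28 without control replicate 2. With GC content and transcript length correction PTBP2 lay on the other side of 0, at -0.037, and at -0.24 when DDX17_KO replicate 2 was left out as well. CELF1, a binder of GU-rich RNA, was lower in each, at 10.7, 12.4 and 10.4 FPKM across the controls and at 7.16, 8.28 and 8.77 across DDX17_KO, a log2 fold change of -0.42 (limma adjusted p 0.369). GRSF1, a G-rich sequence factor of mitochondria, also had separate groups, with a log2 fold change of -0.20. Without DDX17_KO replicate 2, 0 genes of this list and 0 of the kinase list were called. Without both libraries numbered 2, again chosen after the data were seen, limma called EWSR1 (-0.67, adjusted p 0.0452) and KHSRP (-0.47, adjusted p 0.0487) of this list lower. It called 0 of the kinase list, and the shares over all genes were 5.51% higher and 3.3% lower.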

How the data were processed

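RNA of 6 libraries was measured, 3 per group, grouped by source label with replicate numbers from the titles. The deposited file was 1 gene table in FPKM. Its header names no unit, and FPKM was read from the values: in genes with 1 annotated transcript, at least 99.97% of values up to 20 fragments were whole multiples of a step, within 0.05 of a fragment. That step gave the depths. Fragments could not be recovered for genes with several transcripts, so no count test was run. Per the submitters' processing notes, CASAVA 1.8, HISAT2, StringTie, edgeR and hg38 were used, with no roles given. For annotation release and strand setting, nothing is given in the sources used here. The members and lists were chosen with earlier results of these data known.

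Computed here, in R 4.3.3 with limma 3.58.1 (intensity trend, two-sided), were fold changes on log2(FPKM + 1) for the 15620 genes whose mean reached 0.5 FPKM, called at an adjusted p of 0.05. Genes with values per library were DDX17, those with separate groups, the most abundant 2 SR and SR-like and 4 hnRNP genes, and the 4 with the widest range in a group; others were chosen after their values were seen. GENCODE release 29, read with Python 3.11.15 and Biopython 1.88, gave loci, sequences, GC content and length. It matched 58039 of the 58302 identifiers. The procedure was tested on simulated data drawn independently for each gene and library. Deviations that libraries share across genes were not part of that simulation. Same-numbered libraries had correlated deviations across genes, at 0.30, 0.546 and 0.214, each over 0.1; the pairing comes from the data and no label gives it. Only number 2 stands out, since control replicate 1 correlated at 0.33 with DDX17_KO replicate 3 and control replicate 3 at 0.19 with DDX17_KO replicate 1. Alternatives were the replicate block, GC and length corrections with splines of 4 degrees of freedom, other scalings, filters and pseudocounts, robust limma and each library left out.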

Additional observations from a re-analysis of the deposited data

How the results depend on the processing

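Over the planned settings, 0 members were called in either direction. Genes called over the whole table were 0 higher and 6 lower, 0 and 4 with the replicate block, alone or with GC correction, 1 and 10 with GC content and transcript length correction, 0 and 3 with no filter, and 0 to 304 higher and 3 to 268 lower with single libraries left out. The replicate block changed no call of a member or of DDX17 (adjusted p 0.0718 by limma). With settings chosen after seeing the data, the counts were 860 and 516 with both libraries numbered 2 left out, which called 2 members higher, 151 and 155 with GC correction without DDX17_KO replicate 2, and 1 and 14 with coding GC correction among 10547 protein-coding genes. In the first of these DDX17 passed at -1.08, and in the second at -1.21; with single libraries left out its log2 fold change ran from -1.76 to -1.04 and passed without DDX17_KO replicate 2.

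Directions turned for the following members, which were called in neither direction, and the cause was not tested. With GC content and transcript length correction, with or without the block, they were SRSF1 -0.14, HNRNPAB 0.13, HNRNPC -0.17, HNRNPLL -0.0023, HNRNPM 0.14 and HNRNPU -0.038. With that correction and without DDX17_KO replicate 2 they were SRSF1 -0.20, SRSF4 0.082, SRSF7 -0.0825, TRA2A -0.029, HNRNPA1 -0.045, HNRNPC -0.43, HNRNPLL -0.0498, HNRNPM 0.18 and HNRNPU -0.16. With coding GC correction they were SRSF2 0.063, SRSF6 0.037, SRSF8 0.082, SRSF9 0.018, HNRNPA0 0.071, HNRNPAB 0.14, HNRNPLL -0.018, HNRNPM 0.065 and RALY 0.062. With median-of-ratios scaling they were SRSF6 0.0034, TRA2B 0.0101, HNRNPD 0.027 and HNRNPK 0.0155, and with quantile normalization SRSF6 0.0096, HNRNPD 0.0071, HNRNPK 0.0355 and HNRNPL -0.0801. Without both libraries numbered 2 they were HNRNPA1 -0.032 and HNRNPL -0.049. With single libraries left out the ranges that crossed 0 were -0.087 to 0.13 for SRSF1, -0.20 to 0.014 for SRSF6, -0.31 to 0.071 for TRA2B, -0.38 to 0.045 for HNRNPAB, -0.0152 to 0.16 for HNRNPC, -0.20 to 0.056 for HNRNPD and -0.10 to 0.12 for HNRNPL. Depth limits low genes most in DDX17_KO replicate 2, where 3 fragments on 1 kilobase make 0.562 FPKM, a floor for counting error only.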
